A study of Mus musculus with 6 samples.

Results

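The genes described here are 45 mouse genes of the interferon response and of antigen presentation: interferon-induced transcription factors, sensors of foreign nucleic acid, the ISG15 conjugation system, antiviral effector proteins, guanylate-binding proteins (GBPs), and the proteins that cut, carry and display peptides on class I major histocompatibility molecules. They were chosen by name, located by symbol in the GENCODE M21 annotation of the mm10 genome, and matched by position to the transcripts assembled in each library. All 45 were found, out of 31347 genes that could be quantified and 15708 that were above 0 in at least 1 library. The samples were oligodendrocyte precursor cells (OPCs), the dividing progenitors of the cells that make myelin, from the spinal cords of C57BL/6 mice at postnatal day 0.5. RNA-seq was done on 3 libraries labelled Gde3 KO (KO 1, KO 2 and KO 3) and 3 labelled Gde3 WT (WT 1, WT 2 and WT 3). GDE3, the product of Gdpd2, is a membrane enzyme that cuts the glycolipid (GPI) anchor of surface proteins, and the study asked how it bears on OPC proliferation through soluble CNTF receptor. Cells of both genotypes were taken with magnetic beads against A2B5, a surface epitope of glial precursors, plated on poly-lysine and laminin, and grown for 16 h in medium that favours division, which held PDGF and CNTF (both 10 ng/mL), 5 µM forskolin, pyruvate, B27 and N2. The labels name no deleted exon, promoter or Cre for the knockout, and do not say whether replicates came from separate pups, litters or cultures, so the p-values below weigh differences against a spread between libraries that may be technical.

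Interferons are secreted proteins made when a cell senses viral or misplaced nucleic acid. Type I interferon binds its receptor and activates the kinases JAK1 and TYK2. Their activity leads to the assembly of ISGF3, a factor that contains STAT2 and IRF9 and binds the interferon-stimulated response element (ISRE) in the promoters of interferon-stimulated genes, while interferon gamma acts mainly through the gamma-activated site (GAS). In the central nervous system microglia respond strongly, and neurons, astrocytes and oligodendrocyte lineage cells can respond too.

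Levels are given in FPKM, the authors' measure of fragments per length of transcript and size of library, averaged over the exonic bases that only that gene holds, and libraries are listed in the order of replicates 1, 2 and 3. A value of 0 means that no transcript of 300 nt or more was assembled on the gene, not that the gene was silent. This matters most for WT 1, whose assembly was in short pieces: its median transcript was 438 nt long, against 1173 to 1830 nt in the others, and 36.8% of its transcripts were under 300 nt. KO 3 and WT 3 had the most alike assemblies, with median lengths of 1830 and 1816 nt and relative depths of 0.988 and 1, where depth is known only relative to the deepest library. All 10 OPC markers checked (Pdgfra, Cspg4, Olig1, Olig2, Sox10 and others) were above 0, and their summed level ranged from 1060 to 1583 FPKM over the 6 libraries. Markers of astrocytes, microglia, meninges and neurons were also present in every library, so the RNA was not of OPCs alone.

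KO 3 held the highest value for 43 of the 45 genes. Over all 15708 genes above 0, KO 3 was highest for 16.7%. The 2 exceptions were Trim25, highest in WT 2 (as were 9.74% of all genes), and H2-K1, highest in KO 1 (12.3%). KO 2, WT 1 and WT 3 were highest for none of the 45, against 19.8%, 23.3% and 18.1% of all genes. The median over the 45 genes was 0.976, 0.944 and 4.03 FPKM in KO and 0.376, 0.661 and 0.910 FPKM in WT, while the median of all tested genes stayed between 9.25 and 9.85 FPKM in every library. In KO 3, 42 of the 45 were at 1 FPKM or more, against 18 to 22 in each other library. The 45 genes were therefore mostly weakly expressed in 5 libraries and several times higher in 1 of the 3 KO libraries. KO 3 is a single library, so this contrast has no replicate check and no test. With transcripts under 300 nt counted too, KO 3 was highest for 36 of the 45 (13.8% of genes) and WT 1 for 7 (37.5%). These 7 were Herc6, Mx2, Xaf1, Parp14, Gbp2, Gbp3 and Tap1. Short pieces carry very high FPKM, up to 65706 FPKM for Xaf1 in WT 1. The count also depended on how a gene's value was formed. Among members averaging at least 1 FPKM, KO 3 was highest for 28 of 30 (15.9% of genes), for 28 of 34 when only assembled bases were averaged (14.4%), for 24 of 32 with transcripts of any length (13.8%), and for 22 of 37 with FPKM summed over transcripts (7.93%).

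**Figure D1:**
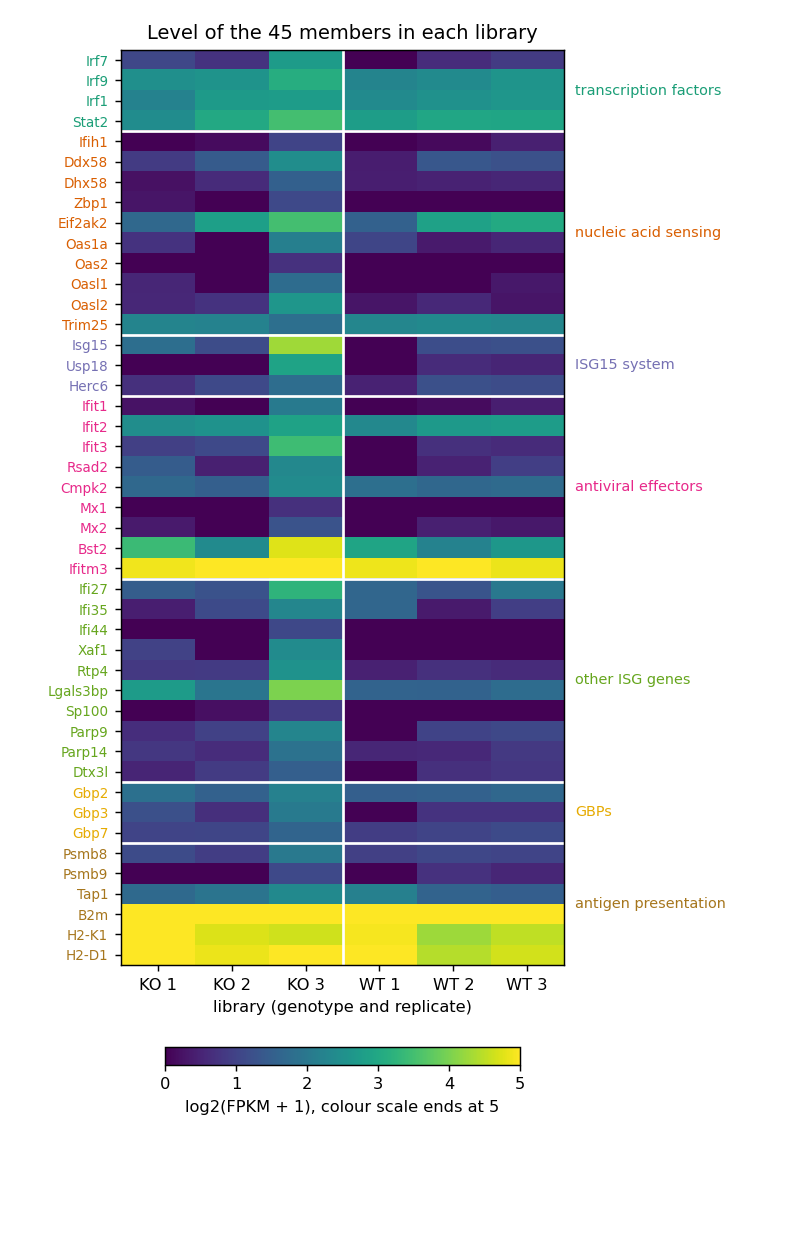
Level of each of the 45 genes (rows, coloured and grouped by role) in each of the 6 libraries (columns), as log2(FPKM + 1), with the colour scale ending at 5. KO 3 holds the highest value in 43 of the 45 rows, with Trim25 and H2-K1 as the exceptions, though values past the end of the scale, among them all of B2m and some of Ifitm3, H2-D1 and H2-K1, share its last colour and cannot be ranked by eye.

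Of the 45, 25 were at 1 FPKM or more in KO 3 and at least 2 times their level in every other library. Over all genes above 0, 0.643% (101 genes) met this rule, so the 25 make up 24.8% of that list and 55.6% of the 45. No member met it in any of the other 5 libraries, where 0.255% (KO 1), 0.42% (KO 2), 1.2% (WT 1), 0.274% (WT 2) and 0.286% (WT 3) of all genes did. Just inside the factor of 2 were Dtx3l, at 2.28 times the next library, and Rsad2 and Gbp3, at 2.32 times each. Just outside it were Ifi35 and Herc6 at 1.82 times, and Sp100, at 0.836 FPKM, missed the 1 FPKM floor. Oas2, Mx1 and Ifi44 were above 0 in KO 3 alone, and of these Ifi44 reached 1 FPKM. A gene can pass this floor through KO 3 alone. When genes had to average at least 1 FPKM over the other 5 libraries, 20 members were left. Of these, 18 were highest in KO 3 (15.4% of all genes so chosen) and 6 were 2 times every other library (0.242%). All these counts leave out pieces under the minimum length. With such pieces counted, Isg15, Ifi27, Oasl1, Psmb8, Mx2, Xaf1, Parp14 and Gbp3 were no longer 2 times every other library in KO 3. The rest of the 25 still met the rule. WT 1 then met it for Xaf1, Parp14 (6.23 FPKM, 2.71 FPKM in KO 3) and Gbp2 (10.8 FPKM, 3.60 FPKM in KO 3). The share of all genes was not counted with such pieces.

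**Figure D2:**
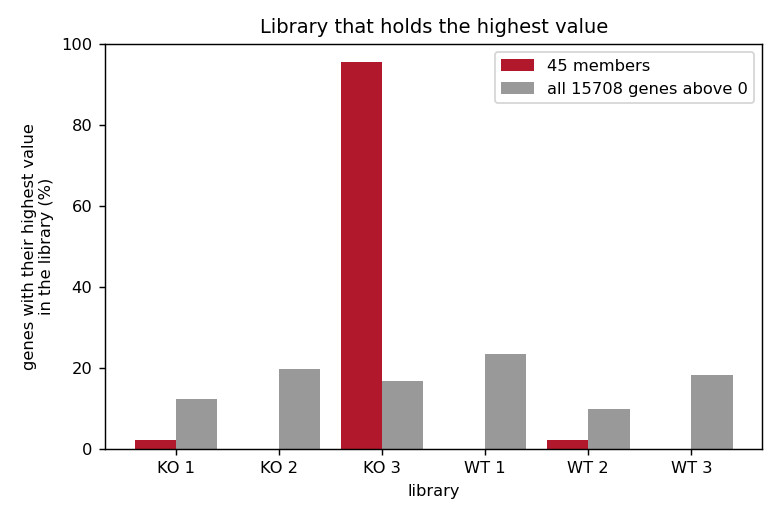
Share of genes, in percent, whose highest value lies in each library, for the 45 members (red) and for all 15708 genes above 0 (grey). KO 3 holds the highest value for 43 of the 45 members and for 16.7% of all genes, and WT 1 holds it for 23.3% of all genes and for no member.

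The promoters of the members are shown because the genes were high together in 1 library and because ISGF3, which contains the products of the members Stat2 and Irf9, acts on a known DNA element. RefSeq promoters (GRCm38.p6, 250 bases before to 50 after the start) were matched for 35 of the 45 by symbol. The core of the ISRE, GAAANNGAAA, was searched on both strands. It lay in a promoter of 15 of the 35 members (42.9%), against 3.99% of 27025 genes in the same table and 3.44% of its 32851 promoters of 300 bases. The members were chosen by name as genes of the interferon response, so an excess over all genes was built into the choice. It cannot show what acted in KO 3. In the stretches below, 60 bases each and written 5′ to 3′ on the gene's strand, capitals mark every match of this core or of its reverse complement. The first 5 belong to genes that were at least 2 times higher in KO 3 than in every other library, and the last 3 to genes that were not.
Isg15: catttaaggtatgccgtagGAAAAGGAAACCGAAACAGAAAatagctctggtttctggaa
Ifit3: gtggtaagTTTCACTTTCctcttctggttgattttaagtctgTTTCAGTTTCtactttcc
Ifit1: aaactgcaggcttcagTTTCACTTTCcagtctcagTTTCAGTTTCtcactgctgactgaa
Bst2: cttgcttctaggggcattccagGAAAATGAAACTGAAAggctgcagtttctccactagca
Rsad2: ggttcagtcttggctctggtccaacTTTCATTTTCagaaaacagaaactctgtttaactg
B2m: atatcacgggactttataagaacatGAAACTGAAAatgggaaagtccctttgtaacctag
Gbp2: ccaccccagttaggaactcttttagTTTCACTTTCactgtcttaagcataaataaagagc
Stat2: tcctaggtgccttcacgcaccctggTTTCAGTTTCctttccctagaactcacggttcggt
The stretch of Isg15 lies at chr4:156200856-156200915 on the minus strand, from 97 to 38 bases before the start, and holds 3 overlapping matches. Ifit3 (chr19:34583365-34583424, plus strand) and Ifit1 (chr19:34640769-34640828, plus strand) hold 2 separate matches each, and Bst2 (chr8:71537565-71537624, minus strand) holds 2 that overlap. Single matches lie in Rsad2 (chr12:26456538-26456597, minus strand), B2m (chr2:122147523-122147582, plus strand), Gbp2 (chr3:142620579-142620638, plus strand) and Stat2 (chr10:128270251-128270310, plus strand).

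A match was present both in members that stood out in KO 3 and in members that did not. The ISRE core was found in 9 of 17 matched members that were at least 2 times higher in KO 3 than in every other library, and in 6 of 18 other members. Among the non-members on the same list of 101 genes, 10 of 55 with a promoter in the table held it (18.2%). The core of the GAS, TTCNNNGAA, also searched on both strands, lay in 9 of the 35 members (25.7%) against 9.55% of genes, and in 3 of the 17 and 6 of the 18. In Bst2 and Ifitm3 a match of one core overlapped a match of the other, and 5 members held both cores in a promoter. The excess of the GAS core over all genes is likewise bound to the choice of members. A match is a string of letters in a window and not a measured binding site.

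Among the 4 transcription factors, Irf7 stood out in KO 3 and the other 3 differed less. Irf7 (ENSMUSG00000025498.15, chr7:141262706-141266481), the factor that amplifies type I interferon production, was at 1.10, 0.653 and 5.74 FPKM in KO and 0, 0.560 and 0.817 FPKM in WT. KO 3 was 5.22 times the next library, while the other 5 overlapped between genotypes. Irf9, the DNA-binding subunit of ISGF3, was at 4.59, 4.90 and 7.66 FPKM in KO and 3.78, 4.23 and 5.01 FPKM in WT. Its partner Stat2 was at 4.37, 7.10 and 10.4 FPKM in KO and 5.84, 6.78 and 6.72 FPKM in WT. KO 3 was highest for both, at 1.53 and 1.47 times the next library. In KO 1 and KO 3 no assembled transcript had its largest overlap with Irf9, and in WT 3 only a piece of 417 nt did. The Irf9 values of these libraries come mainly from transcripts that overlap another gene more, so its level there is uncertain. Irf1, an activator induced mainly by interferon gamma, was at 3.65, 5.61 and 5.79 FPKM in KO and 4.23, 4.80 and 5.14 FPKM in WT. Its genotypes overlapped fully, and KO 3 exceeded KO 2 by a factor of only 1.03.

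Of 10 genes for sensing nucleic acid, 9 were highest in KO 3 and 7 of them by at least 2 times. The largest ratio in this role was that of Oasl2, an oligoadenylate synthetase-like protein, at 0.466, 0.657 and 5.15 FPKM in KO and 0.220, 0.489 and 0.216 FPKM in WT. KO 3 was 7.85 times the next library and 23.8 times WT 3. WT 1 rose to 2.45 FPKM with pieces under 300 nt counted, so the 7.85-fold lead depends on that minimum. Ddx58, which encodes the RNA sensor RIG-I, was at 0.823, 1.72 and 4.50 FPKM in KO and 0.319, 1.57 and 1.37 FPKM in WT. Eif2ak2, the RNA-activated kinase PKR that halts translation, was at 2.24, 6.05 and 10.4 FPKM in KO and 1.92, 6.26 and 7.23 FPKM in WT. For Eif2ak2 both replicate 1 libraries were the lowest of their genotypes, and KO 3 was 1.44 times WT 3. The other 6 sensors averaged under 1 FPKM: Ifih1 (MDA5), Dhx58 (LGP2), the Z-form nucleic acid sensor Zbp1, and the oligoadenylate synthetase family genes Oas1a, Oas2 and Oasl1. In KO 3 they lay between 0.646 FPKM (Oas2) and 3.44 FPKM (Oas1a), and in the other libraries none exceeded the 1.05 FPKM of Oas1a in WT 1. Oas2 was listed at 0 in the other 5 libraries, and Zbp1 in 4 of them.

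Trim25, a ubiquitin ligase that acts on RIG-I, went the other way, at 3.79, 3.68 and 2.55 FPKM in KO and 3.90, 4.16 and 3.93 FPKM in WT. KO 3 was the lowest of the 6. Its assembled extent was also lowest there: KO 3 had a single transcript of 1571 nt in 9 exons, at 9.34 FPKM, that covered 27.3% of the gene's bases, against 87.4% to 96.4% in the other libraries. When only assembled bases were averaged, the KO minus WT log2 difference was 0.24, against -0.22 over all bases, so its direction depended on the part of the gene that was assembled.

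Of the 7 roles, the 3 genes of the ISG15 system had the highest median ratio of KO 3 to WT 3, at 13.9, although Oasl2, at 23.8, and Ifit3, at 18.4, exceeded it as single genes. Isg15 (ENSMUSG00000035692.6, chr4:156199424-156200818, minus strand), a ubiquitin-like protein that is joined to other proteins, was at 2.50, 1.23 and 18.7 FPKM in KO and 0, 1.26 and 1.34 FPKM in WT. KO 3 was 7.47 times KO 1, the next library, and KO 2, WT 2 and WT 3 lay near 1 FPKM. The genotype means were 7.46 ± 9.71 and 0.866 ± 0.751 FPKM (SD, n = 3 each), with an SD in KO larger than the mean. The authors' assembler gave its transcript an interval of 24.6 to 29.6 FPKM in KO 3, around 27.1, against 1.21 to 2.39 in WT 3 and 2.65 to 4.54 in KO 1. In WT 1 Isg15 was present only as pieces of 209 and 135 nt, so its 0 comes from the 300 nt minimum. With these pieces counted WT 1 was at 14.7 FPKM, below the 18.7 FPKM of KO 3, so the 7.47-fold lead depends on that minimum.

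Usp18, the protease that removes ISG15 and restrains the type I receptor, was at 0, 0 and 6.51 FPKM in KO and 0, 0.529 and 0.429 FPKM in WT. KO 3 had the gene assembled over 99.9% of its bases, in 11 exons, WT 2 and WT 3 had parts of it, and the other 3 libraries had none. Its order therefore turned with KO 3: the log2 difference was 0.59 ± 0.82 (SE) with KO 3 and -0.38 without it. Herc6, the mouse ligase for ISG15, was at 0.626, 1.16 and 2.45 FPKM in KO and 0.386, 1.34 and 1.25 FPKM in WT. KO 3 was 1.82 times the next library, and the replicate 1 libraries were again lowest.

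All 9 antiviral effector genes were highest in KO 3, 5 of them by at least 2 times. The IFIT genes, whose proteins bind viral RNA, lie together on chromosome 19 and differed in pattern. Ifit3 (chr19:34583531-34588731) was at 0.930, 1.15 and 9.88 FPKM in KO and 0, 0.615 and 0.537 FPKM in WT. Its KO 3 level was 8.57 times the next library, and every KO library was above every WT library. Ifit1 averaged under the testing minimum and was at 3.16 FPKM in KO 3 and at most 0.329 FPKM elsewhere. Ifit2 was at 4.48, 4.86 and 6.33 FPKM in KO and 4.08, 5.41 and 5.77 FPKM in WT. Its libraries lay close together, with KO 3 at 1.10 times WT 3. Ifit3 has a near-identical neighbour, Ifit3b, with which it can share reads, so the split between these copies is uncertain.

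Rsad2 (viperin, an enzyme that makes a chain-terminating nucleotide) and Cmpk2, a mitochondrial nucleotide kinase, are neighbours on chromosome 12. Rsad2 was at 1.73, 0.356 and 4.03 FPKM in KO and 0, 0.386 and 0.895 FPKM in WT. KO 3 was highest and KO 1 second, and KO 2 lay among the WT libraries. Cmpk2 was at 2.24, 1.85 and 4.32 FPKM in KO and 2.53, 2.197 and 2.33 FPKM in WT. The other KO libraries were within or below the WT range, and without KO 3 the log2 difference was -0.14.

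Bst2 (tetherin, which holds budding virions at the cell surface; chr8:71534255-71537456) was at 9.57, 4.25 and 26.0 FPKM in KO and 6.57, 3.63 and 5.25 FPKM in WT. KO 3 was 2.72 times KO 1, KO 1 was above all WT libraries, and KO 2 was within them. Ifitm3, which blocks virus entry from endosomes, was the most abundant effector, at 28.7, 45.6 and 50.4 FPKM in KO and 28.3, 32.6 and 27.7 FPKM in WT. Here KO 2 and KO 3 were both above WT and KO 1 was within it, and leaving out KO 3 took the log2 difference from 0.44 to 0.29. Of the antiviral GTPase genes, Mx1, which carries a deletion in C57BL/6, was at 0.615 FPKM in KO 3 and listed at 0 in all other libraries. Mx2 was at 1.41 FPKM in KO 3 and at most 0.349 FPKM elsewhere. With pieces under 300 nt counted, WT 1 was highest for Mx2, at 1.93 FPKM.

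All 10 other interferon-stimulated genes were highest in KO 3, 8 of them by at least 2 times. Lgals3bp (ENSMUSG00000033880.11, chr11:118392751-118402092), a secreted glycoprotein that binds galectin 3, was at 5.73, 2.86 and 15.1 FPKM in KO and 2.02, 1.96 and 2.39 FPKM in WT. The 3 WT libraries were close together and every KO library lay above them. Its means were 7.91 ± 6.42 and 2.12 ± 0.235 FPKM (SD, n = 3 each). Rtp4, a chaperone of membrane receptors, was at 0.766, 0.793 and 4.87 FPKM in KO and 0.376, 0.612 and 0.522 FPKM in WT. It too had no overlap between genotypes, although KO 1 and KO 2 were only narrowly above WT 2.

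Ifi27, a mitochondrial and nuclear-envelope protein, was at 1.79, 1.39 and 8.58 FPKM in KO and 2.14, 1.45 and 3.02 FPKM in WT. Ifi35, which acts with the NMI protein, was at 0.332, 1.18 and 3.92 FPKM in KO and 2.16, 0.291 and 0.910 FPKM in WT. For both genes KO 3 was highest and the other KO libraries were within or below the WT range. Parp9, which pairs with the ubiquitin ligase DTX3L, was at 0.575, 0.944 and 3.84 FPKM in KO and 0, 1.01 and 1.12 FPKM in WT. The Dtx3l gene overlaps Parp9 head to head, and over bases of its own it was at 1.86 FPKM in KO 3 and at most 0.818 FPKM elsewhere. Ifi44, Xaf1, the nuclear body gene Sp100 and the ADP-ribosyltransferase gene Parp14 averaged under 1 FPKM over the 6 libraries and reached 1.11, 4.29, 0.836 and 2.71 FPKM in KO 3. In the WT libraries Ifi44, Xaf1 and Sp100 were listed at 0 in all 3.

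The 3 GBP genes, large GTPases that attack the membranes around intracellular microbes and that respond strongly to interferon gamma, lay side by side on chromosome 3 and were all highest in KO 3. Gbp3 was at 1.33, 0.603 and 3.09 FPKM in KO and 0, 0.661 and 0.656 FPKM in WT. Gbp2 was at 2.62, 1.93 and 3.60 FPKM in KO and 1.85, 1.92 and 2.18 FPKM in WT. Gbp7 was at 1.05, 1.06 and 2.05 FPKM in KO and 0.871, 1.04 and 1.18 FPKM in WT. Only Gbp3 passed the factor of 2. With pieces under 300 nt counted, WT 1 was highest for Gbp3 and Gbp2, at 4.46 and 10.8 FPKM. Over the genes above 0 in WT 3, the median of KO 3 over WT 3 was 1.75 for the 3 GBP genes, 4.73 for 8 of the 9 effectors, 3.76 for 8 of the 10 sensors, 3.47 for 7 of the 10 other interferon-stimulated genes, 2.40 for the 6 antigen presentation genes and 1.54 for the 4 transcription factors. These genes are similar in sequence, so reads can be split among them.

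Antigen presentation differed from the other roles in its level: 3 of its 6 genes were abundant in every library. B2m (ENSMUSG00000060802.8, chr2:122147686-122153083), the invariant chain of class I molecules, was at 112, 91.1 and 144 FPKM in KO and 112, 77.9 and 45.6 FPKM in WT. KO 3 was highest and WT 3 lowest, while KO 1 and WT 1 were equal at this precision. The B2m transcript was 458 nt at 276 FPKM in KO 3 and 1569 nt at 45.6 FPKM in WT 3, so the 3.15-fold ratio of these libraries also depends on how much of the gene was assembled. H2-K1 and H2-D1 encode the class I heavy chains, which present peptides to CD8 T cells. H2-K1 was at 34.8, 25.6 and 23.8 FPKM in KO and 29.3, 18.4 and 22.1 FPKM in WT. H2-D1 was at 45.1, 28.0 and 52.9 FPKM in KO and 45.2, 20.9 and 24.2 FPKM in WT. Both replicate 1 libraries were high for the heavy chains, and for H2-K1 KO 3 was below KO 1, KO 2 and WT 1. Class I genes share sequence, and their values are uncertain for that reason.

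The immunoproteasome and the peptide transporter were at low levels. Psmb8, a catalytic subunit, was at 1.21, 0.867 and 3.08 FPKM in KO and 0.930, 1.09 and 1.03 FPKM in WT. KO 3 was 2.54 times the next library and the other 5 lay together. WT 1 rose to 1.60 FPKM with pieces under 300 nt counted, so the 2.54-fold lead depends on that minimum. Psmb9, the partner subunit, was at 1.15 FPKM in KO 3, 0.637 FPKM in WT 2 and 0.459 FPKM in WT 3. It was listed at 0 in KO 1, KO 2 and WT 1, and KO 3 was 1.80 times the next library. Tap1, a subunit of the transporter that moves peptides into the endoplasmic reticulum, was at 2.26, 2.81 and 4.17 FPKM in KO and 3.51, 2.01 and 1.82 FPKM in WT. WT 1 was second for Tap1, so the genotypes overlapped.

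**Figure D3:**
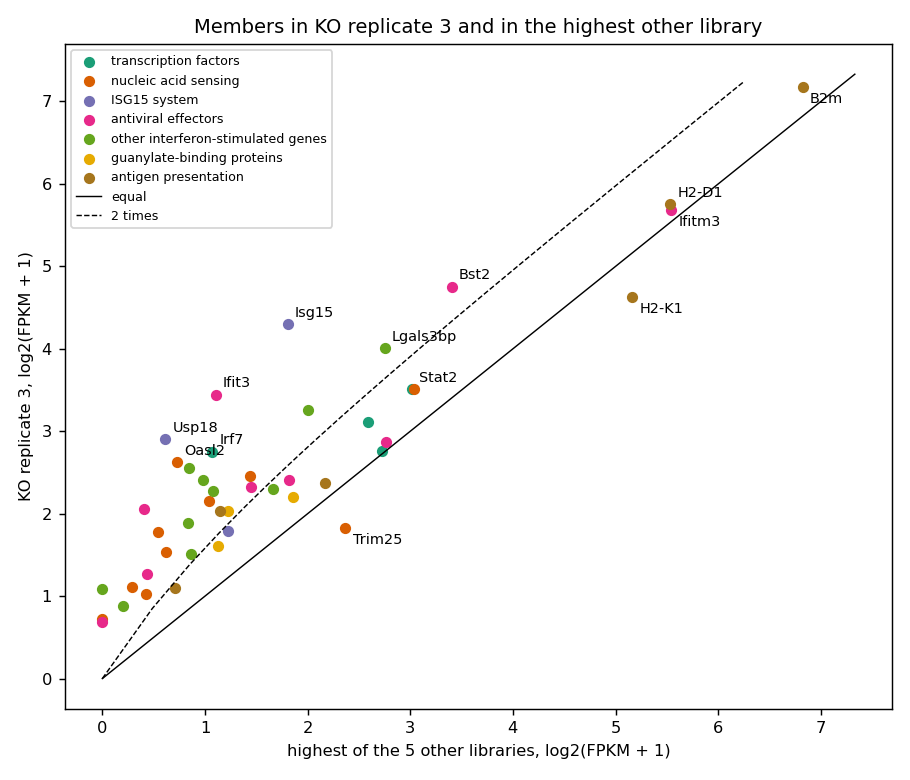
Each point is 1 of the 45 genes, coloured by role, with its level in KO 3 (vertical axis) against the highest of the other 5 libraries (horizontal axis), both as log2(FPKM + 1). The solid line marks equal levels and the dashed line 2 times, and 43 genes lie above the solid line, Isg15, Ifit3, Usp18 and Oasl2 farthest, while Trim25 and H2-K1 lie below it.

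Libraries of the same replicate number deviate together in these data, so KO was also set against WT within each number. In pair 3, 44 of 45 genes were higher in KO (53.9% of all genes above 0 in either library), with a median log2 difference of 1.06. In pair 2, 23 of 39 were higher (51.9%), with a median of 0.05. In pair 1, 27 of 38 were higher (47.4%), with a median of 0.24, where WT 1 is the fragmented assembly. The medians over all genes were -0.01, 0.01 and 0.02 for pairs 1, 2 and 3. At 1 FPKM or more and 2 times WT, there were 30 members in pair 3 (3.87% of genes), 1 in pair 2 (3.11%) and 5 in pair 1 (3.78%). In pair 3 each of the 7 roles held such a gene. In the other direction, at 1 FPKM or more in WT and 2 times KO, there was 1 member in pair 1, Ifi35 (3.77% of genes), and none in pair 2 (2.44%) or pair 3 (2.5%).

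Genotype was then tested over all 6 libraries with limma on log2(FPKM + 1). None of the 30 members that averaged at least 1 FPKM passed the adjusted threshold of 0.05, each having an adjusted p of 0.9999, and 1 had an unadjusted p under 0.05. Over all 12048 genes tested, 1 was called (0.0083%) and 196 had an unadjusted p under 0.05 (1.63%). The member was Lgals3bp, with a log2 difference of 1.26 ± 0.50 (SE) and an unadjusted limma p of 0.0444. Larger differences were those of Isg15, at 1.62 ± 0.85, and Ifit3, at 1.40 ± 0.69, and the next smaller was that of Irf7, at 1.01 ± 0.57, each with a limma adjusted p of 0.9999. With the replicate number as a block the smallest limma adjusted p among the 30 was 0.809, and none was called.

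The 30 tested members had a median log2 difference of 0.40, against -0.01 over all genes tested, and 29 of them were higher in KO (48.6% of all genes). Of the 30, 10 passed the minimum only through KO 3. With the minimum set over the other 5 libraries, 19 of 20 members were higher in KO, with a median of 0.30. When KO 3 was left out of the fit, 13 of 20 were higher, with a median of 0.09. The count thus rests on the values of KO 3 more than on the minimum. The share of all genes higher in KO was not counted for these fits. Every KO library was above every WT library for 3 members, Ifit3, Rtp4 and Lgals3bp, while 2.04% of all genes met this rule. With all 45 members and no minimum, 43 were higher in KO (52.4% of genes), the median was 0.36, none was called by limma (0.00637% of genes) and 1 had an unadjusted p under 0.05 (1.75%). Among the 4 libraries whose label identifiers carry the middle number 4 (replicates 2 and 3), 32 of 34 tested members were higher in KO (53.1%), the median was 0.62 and 14 did not overlap (15.4%), with none called (0.223% of genes). KO 3 was the highest of these 4 libraries for 32 of the 34 (24.7%). The replicate 1 libraries carry the number 3 and hold 1 library per genotype, given above as pair 1.

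Without KO 3 and with no minimum, 42 members were above 0 and 26 of them were higher in KO, against 49.7% of all genes. Their median log2 difference was 0.10, against -0.0016 over all genes, none was called by limma (0.0128% of genes) or had an unadjusted p under 0.05 (1.92%), and 3 did not overlap (5.61%). The differences ranged from -0.42 for Psmb9 to 0.71 for Lgals3bp. By role, 7 of 9 other interferon-stimulated genes, 5 of 6 antigen presentation genes and 3 of 3 GBP genes were higher in the remaining KO libraries, against 2 of 4 transcription factors, 4 of 9 sensors, 4 of 8 effectors and 1 of 3 genes of the ISG15 system. WT 1, with 19 of the 45 at 0, enters this contrast. Without WT 1 as well, 22 of 42 were higher (48.3%), the median was 0.02, 7 did not overlap (14.1%), none was called (0.0841%) and 2 had an unadjusted limma p under 0.05 (3.59%). Lgals3bp kept a difference of 0.69, and B2m, H2-D1 and H2-K1 had 0.75, 0.64 and 0.55, while Eif2ak2, Psmb9 and Usp18 had -0.69, -0.63 and -0.56. This contrast has replicate 1 in KO alone and replicate 3 in WT alone, so genotype and replicate cannot be told apart in it. KO 1 and WT 1 were close for B2m (112 and 112 FPKM), H2-D1 (45.1 and 45.2 FPKM) and Eif2ak2 (2.24 and 1.92 FPKM). KO 1 was above WT 1 for H2-K1 (34.8 and 29.3 FPKM) and Lgals3bp (5.73 and 2.02 FPKM).

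**Figure D4:**
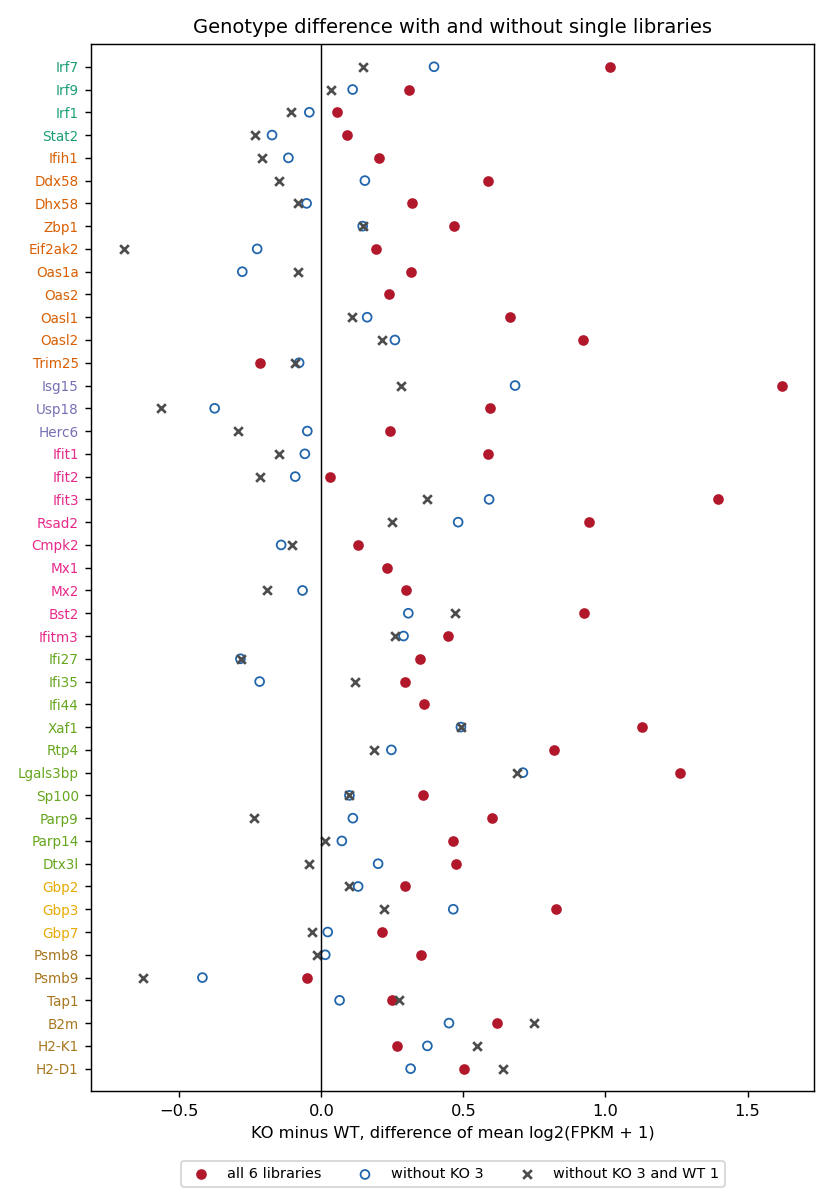
KO minus WT difference of mean log2(FPKM + 1) for each of the 45 genes, coloured by role, with all 6 libraries (filled circles), without KO 3 (open circles) and without KO 3 and WT 1 (crosses). With all libraries 43 points lie to the right of 0 and the median is 0.36, and without KO 3 the points gather around 0 with a median of 0.10, while Oas2, Mx1 and Ifi44 have no value because they were above 0 in KO 3 alone.

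The rest of the pathway was read from lists of genes outside the 45. No gene of these lists was called. Of 21 interferon genes, 19 were listed at 0 in all 6 libraries, Ifnb1 and Ifng among them, and the others were Ifna13, at 0.207 FPKM in KO 1 alone, and Ifna16, at 0.569 FPKM in KO 3 alone. All 8 tested genes for interferon receptors and their kinases were present in every library, and 3 of them were highest in KO 3, none by 2 times. Their summed level was 90.0 to 98.6 FPKM, with Jak1 at 21.98, 28.1 and 30.7 FPKM in KO and 22.4, 27.3 and 28.9 FPKM in WT. The type I receptor chain Ifnar2 was at 5.23, 4.33 and 4.42 FPKM in KO and 11.1, 8.87 and 4.82 FPKM in WT. WT 1 and WT 2 were above every KO library and WT 3 was among them, at a limma adjusted p of 0.9999. Of the 8 tested STAT, IRF and IRF-binding genes outside the members, 5 were higher in KO. The most abundant, Stat3, was at 50.2, 57.8 and 63.3 FPKM in KO and 50.9, 63.4 and 59.9 FPKM in WT, and Irf8, with the smallest p, had a log2 difference of 0.24 ± 0.18 (SE).

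Further interferon-stimulated genes showed the pattern of the members. Of 40 that were above 0, 29 were highest in KO 3 and 10 were 2 times every other library, Ifit3b, Ifi204, Gbp6 and Igtp among them (named after their values were seen). Gbp6 was at 2.56 FPKM in KO 3, 0.0519 FPKM in WT 3 and 0 elsewhere. The most abundant, Ogfr, differed less, at 39.2, 44.3 and 48.5 FPKM in KO and 38.6, 35.9 and 42.8 FPKM in WT. Tor3a, with the smallest p, was at 2.72, 3.19 and 2.98 FPKM in KO and 1.26, 2.36 and 1.59 FPKM in WT, without overlap, at an unadjusted limma p of 0.0255 and an adjusted p of 0.9999. Of 20 sensing and induction genes 13 were highest in KO 3, and only Tlr2 by 2 times (named after its values were seen). The most abundant, the kinase gene Tbk1, was at 8.95, 14.2 and 15.4 FPKM in KO and 8.13, 12.6 and 15.6 FPKM in WT. Adar, the RNA-editing enzyme that limits RNA sensing, was at 11.2, 13.9 and 16.9 FPKM in KO and 10.6, 9.44 and 8.16 FPKM in WT, without overlap, at an unadjusted limma p of 0.0262 and an adjusted p of 0.9999. A list of 10 genes held 7 that restrain the response, the ISG15 enzyme genes Uba7 and Ube2l6, and the antiviral exonuclease gene Isg20. In it 5 were highest in KO 3: Socs3, Ptpn6, Ptpn11, Uba7 and Ube2l6. The phosphatase gene Ptpn6 was at 2.86, 3.12 and 5.40 FPKM in KO and 1.98, 1.25 and 2.21 FPKM in WT, and the most abundant, Ptpn11, was at 45.4, 44.3 and 51.3 FPKM in KO and 43.5, 46.4 and 47.9 FPKM in WT. Of 21 class I genes outside the members 11 were highest in KO 3, and H2-M3 alone by 2 times (named after its values were seen). The most abundant, the chaperone gene Calr, was at 522, 414 and 414 FPKM in KO and 583, 434 and 358 FPKM in WT, and Psmb10, with the smallest p, had a log2 difference of 0.33 ± 0.20 (SE). Class II genes were at low levels: 1 of 9 was tested, H2-DMa, at 2.19, 2.33 and 1.63 FPKM in KO and 2.30, 0 and 1.77 FPKM in WT. H2-Aa was listed at 0 in all libraries and the invariant chain gene Cd74 reached 1.12 FPKM in KO 3 (both named after their values were seen).

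Markers of other cell types moved with KO 3 as well. The summed level of 17 microglia or macrophage markers was 187.6, 191.3 and 328.3 FPKM in KO and 144.1, 107.8 and 157.3 FPKM in WT. Of them 16 were above 0, 13 were highest in KO 3, and C1qa, C1qc and Aif1 were 2 times every other library there. C1qa, a complement subunit made by microglia, was at 13.2, 13.1 and 34.8 FPKM in KO and 8.87, 6.11 and 8.12 FPKM in WT. All 12 tested markers of this list were higher in KO, against 48.6% of all genes, with a median log2 difference of 0.80 with KO 3 and 0.53 without it. None was called, and 6 of the 12 had an unadjusted limma p under 0.05, against 1.63% of all genes. Levels within this list differed widely (genes named after their values were seen). Ctss, Tyrobp and Csf1r reached 100.9, 44.1 and 13.1 FPKM, each in KO 3. Cx3cr1 and P2ry12 were also highest in KO 3, but at only 1.59 and 0.281 FPKM, and Siglech was at 0 in all libraries. Astrocyte markers summed to 620.4 FPKM in KO 3 against 110.8 to 451.0 FPKM elsewhere, and meningeal markers to 125.8 FPKM against 48.2 to 92.7 FPKM. Endothelial markers were not high in KO 3, at 7.07 FPKM within a range of 6.42 to 20.4 FPKM, and neither were neurons' markers, at 94.0 FPKM, the lowest of the 6. Of 10 markers of T, NK or B cells, 9 were at 0 in all libraries, and neutrophil markers summed to at most 5.18 FPKM. In bulk RNA, more cells of a type and more RNA per cell cannot be told apart, and the part of these cell types in the levels of the 45 genes was not tested.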

How the data were processed

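The submitters' processing notes name the mm10 build, TopHat2 (2.1.1), Cufflinks and Cuffdiff (both 2.2.1), and FastQC. The authors deposited 1 transcript assembly per library, in which each transcript has its exons and its FPKM, with no gene names and no read counts. Depth is therefore known only relatively (0.759 to 1), and whether the libraries keep strand is not stated in these sources. Transcripts of 300 nt or more were matched by position to GENCODE M21, with the gene's strand or none. Each gene's value is their summed FPKM per base, averaged over the exonic bases, at least 200, that no other gene shares. A base average depends on assembled extent as well as on level.

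All genes averaging 1 FPKM or more were tested with limma 3.58.1 (R 4.3.3) on log2(FPKM + 1), two-sided and with a trend, with genotype alone in the model and Benjamini-Hochberg adjustment over 12048 genes. This scale understates the fold of low genes. An exact permutation test of 3 against 3 libraries cannot give p under 0.1. The code was tested on simulated data.

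KO and WT libraries of one replicate number shared deviations from their genotype's mean (r over genes of 0.37, 0.20 and 0.29 for replicates 1, 2 and 3, against -0.28 to 0.02 for other combinations), so the numbers, which come from the titles, were taken to pair the samples. Deviations from a genotype's own mean cancel out, so positive values for the same number push the other combinations down. The contrast between the 2 kinds of combination is therefore partly built in. Every member was accounted for, and those that averaged 1 FPKM or more were given per library. Pathway genes given with values are those with the highest mean and the smallest limma p among the tested genes of their list, unless said otherwise. Members and lists were chosen with earlier results of these data known. Alternatives covered pseudocounts, filters, scaling, the replicate block, the identifier number, weights, the gene value, the length minimum and left-out libraries.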

Additional observations from a re-analysis of the deposited data

How the results depend on the processing

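No member was called by limma under any alternative run. The count of genes called was 1 to 17 with each library left out in turn, 0 with a pseudocount of 0.1 or 5, with the replicate block, with FPKM summed over transcripts, and with the replicate block without both replicate 3 libraries, 2 with assembled bases only and 27 with identifier number 4 only. The median difference of the members was 0.09 to 0.70 with each library left out in turn. Members highest in KO 3 numbered 28 of the 30 tested (15.9% of genes tested), 43 of 45 with no filter, 16 of 18 with a mean of 2 FPKM, 28 of 34 with assembled bases only, 24 of 32 with transcripts of any length, 22 of 37 with FPKM summed over transcripts, 32 of 34 with identifier number 4 only, and 29 of 31 to 31 of 33 with each library other than KO 3 left out in turn. Members without overlap numbered 3 (2.04% of genes tested) and 14 with identifier number 4 only (15.4%). They numbered 1 to 11 with each library left out, lowest without KO 3. The share of all genes was not counted for these left-out fits. Fewer libraries overlap less often, so these counts cannot be read against the 3. Alternatives chosen after seeing the data gave 2 genes called without KO 3 and with no filter. When WT 1 was left out as well they gave 13 genes called and 7 members without overlap (14.1% of genes). When the filter used the other 5 libraries, 18 of 20 members were highest in KO 3 (15.4% of genes). In that setting 1 member was without overlap, and the share of all genes was not counted. The block changed no call of a member.

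Of 678 alternative log2 differences of single members, 625 kept their direction and 53, in 17 members, did not, and the cause was not tested. FPKM summed over transcripts gave -0.71 for Irf9, -0.25 for Irf1, -0.17 for Stat2, -0.0087 for Eif2ak2, -0.31 for Ifit2, -0.48 for Cmpk2, -0.014 for Ifi35, -0.055 for Psmb8 and -0.63 for Tap1. For Irf9 this sum had no transcript in KO 1 or KO 3. Assembled bases only gave 0.24 for Trim25, -0.055 for Herc6 and -0.025 for Tap1. Transcripts of any length gave -0.36 for Herc6, -0.0061 for Ifi27 and -0.39 for Gbp2. Identifier number 4 only gave -0.0075 for Ifit2. The replicate block without both replicate 3 libraries gave -0.15 for Stat2, -0.0094 for Ifit2, -0.15 for Cmpk2, -0.11 for Ifi27 and -0.064 for Tap1. Without KO 3 and with no filter the values were -0.043 for Irf1, -0.17 for Stat2, -0.23 for Eif2ak2, -0.38 for Usp18, -0.050 for Herc6, -0.092 for Ifit2, -0.14 for Cmpk2, -0.29 for Ifi27 and -0.22 for Ifi35. Without WT 1 as well they were -0.11 for Irf1, -0.23 for Stat2, -0.15 for Ddx58, -0.69 for Eif2ak2, -0.56 for Usp18, -0.29 for Herc6, -0.22 for Ifit2, -0.10 for Cmpk2, -0.28 for Ifi27, -0.24 for Parp9, -0.034 for Gbp7 and -0.017 for Psmb8. In that setting replicate 1 was in KO alone and replicate 3 in WT alone. With each library left out in turn the ranges were -0.043 to 0.23 for Irf1, -0.17 to 0.37 for Stat2, -0.28 to 0.68 for Eif2ak2, -0.093 to 0.12 for Ifit2, -0.14 to 0.31 for Cmpk2, -0.29 to 0.72 for Ifi27 and -0.017 to 0.73 for Ifi35.

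Depth is known only relatively, so no counting error can be given, and low members near 1 FPKM are the least certain. Ranks in KO 3 could not be computed where KO 3 was left out, and the block, weights and robust fit do not bear on ranks.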
